A study of Mus musculus with 28 samples.

Results

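The genes described here are 33 mouse genes of cholesterol and fatty acid synthesis, taken by symbol. They comprise 7 enzymes of the mevalonate pathway, 11 enzymes that turn its products into squalene and cholesterol, 5 regulators of both pathways and 10 genes of fatty acid synthesis, elongation and desaturation. A gene was measured through Affymetrix probe sets, the groups of short probes for one transcript, and a probe set was used when the platform annotation named exactly 1 gene for it. This held for 31 of the 33 genes, among 12393 genes with such a probe set, and Acat2 and Insig1 were not analysed here. After a filter on dim probe sets, 29 of the genes were tested among 7235 in one experiment and 26 among 8422 in the other. Acaca and Scd1 passed the filter in neither experiment, and Mvk, Pmvk and Dhcr7 did not pass it in the second.

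The study asked how the leukaemia fusion protein MLL-AF9 acts in committed progenitors of mouse bone marrow, and profiled sorted cells on 28 arrays. One experiment, called transduced here, held granulocyte-macrophage progenitors (GMP) made to express MLL_AF9 (3 arrays) or the marker protein GFP (3 arrays). In the other, called sorted, leukaemic cells that were CD34+ and FCR+ within the Lin-, sca-, kit+ gate (L-GMP, 6 arrays) were set beside normal marrow cells. The normal cells were a Lin-, sca+, kit+ fraction in which haematopoietic stem cells are enriched (called HSC, 5 arrays) and 3 progenitors from the Lin-, sca-, kit+ gate. Those progenitors were the FCR- and CD34- megakaryocyte-erythroid progenitors (MEP, 3 arrays), the common myeloid progenitors labelled FCR+ and CD34low (CMP, 4 arrays) and the GMP labelled FCR+ and CD34high (4 arrays). The labels give no strain, age, sex, vector or number of mice, and do not say whether replicates were separate animals, so each p-value measures only how samples varied, and that variation may be technical. RNA of the 2 experiments was amplified on separate days, and the design text treats them as noncomparable, so no level was compared between them.

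Cells make cholesterol from acetyl-CoA through mevalonate, farnesyl pyrophosphate and squalene, and they make fatty acids from the same acetyl-CoA through malonyl-CoA. Both routes are driven by the transcription factors SREBP-1 (gene Srebf1) and SREBP-2 (gene Srebf2), which wait in the membrane of the endoplasmic reticulum. When sterols run low, the escort protein SCAP carries them to the Golgi for cleavage, and when sterols are plentiful the INSIG proteins hold SCAP back. SREBPs act at promoters together with NF-Y, which binds the CCAAT box, and with Sp1, which binds the GC box.

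Promoters are shown for 4 enzyme genes that were lower in L-GMP than in GMP and have a window in RefSeq's table, to set their CCAAT boxes and sterol elements side by side. The regulator Scap, also lower, has 2 windows there that hold neither motif, and they are not printed. Each window runs from 250 bases before a start in RefSeq's table to 50 bases after it, on the strand of the gene. The build is RefSeq's GRCm38.p6. The Fasn window lies wholly inside the RefSeq gene (120805958 to 120825166), so its positions are not counted from the outer end of the gene. Capitals mark CCAAT, written ATTGG where it lies on the other strand, and the sterol element core TCACNCCAC. The windows are chr13:119690101-119690400 for Hmgcs1 (plus strand), chr11:120824498-120824797 for Fasn (minus strand), chr9:77917115-77917414 for Elovl5 (plus strand) and chr3:129532136-129532435 for Elovl6 (plus strand).
Hmgcs1: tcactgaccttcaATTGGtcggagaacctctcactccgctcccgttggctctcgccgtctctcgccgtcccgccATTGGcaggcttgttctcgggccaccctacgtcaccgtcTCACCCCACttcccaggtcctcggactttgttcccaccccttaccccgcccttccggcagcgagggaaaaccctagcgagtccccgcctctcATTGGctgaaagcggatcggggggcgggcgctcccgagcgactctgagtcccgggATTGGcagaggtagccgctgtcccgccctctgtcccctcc
Fasn: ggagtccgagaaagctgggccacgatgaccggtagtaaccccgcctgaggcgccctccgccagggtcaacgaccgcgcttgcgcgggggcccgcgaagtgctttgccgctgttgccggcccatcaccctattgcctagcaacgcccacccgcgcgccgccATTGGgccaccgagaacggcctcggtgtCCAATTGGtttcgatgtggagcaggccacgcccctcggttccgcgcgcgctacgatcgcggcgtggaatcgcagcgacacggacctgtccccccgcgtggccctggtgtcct
Elovl5: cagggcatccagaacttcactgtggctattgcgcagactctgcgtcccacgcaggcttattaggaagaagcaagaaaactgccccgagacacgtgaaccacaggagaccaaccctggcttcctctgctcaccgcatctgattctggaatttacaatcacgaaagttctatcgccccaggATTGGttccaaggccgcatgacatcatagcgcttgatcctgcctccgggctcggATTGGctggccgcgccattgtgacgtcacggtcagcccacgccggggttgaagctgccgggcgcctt
Elovl6: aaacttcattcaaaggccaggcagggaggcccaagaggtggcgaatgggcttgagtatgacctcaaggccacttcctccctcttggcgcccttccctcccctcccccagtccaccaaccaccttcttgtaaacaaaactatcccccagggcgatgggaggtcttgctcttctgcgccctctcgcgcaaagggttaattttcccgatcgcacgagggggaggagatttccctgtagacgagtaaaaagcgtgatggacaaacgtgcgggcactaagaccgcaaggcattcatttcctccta

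The Hmgcs1 window held 4 CCAAT boxes and the sterol core, whose first base lies at -137 from the start. The Fasn window held 3 CCAAT boxes, of which 2 overlap head to head at -62 and -59, and the Elovl5 window held 2. The Elovl6 window held neither motif. RefSeq's table gave a window for 27 of the 33 members, and motifs were searched on both strands. CCAAT was found in 22 of the 27 members (81.5%), against 41.1% of the 27025 genes in the table, and in 63.9% of the members' 36 windows, against 37.4% of all 32851 windows. GGGCGG, the GC box of Sp1, was also found in 22 of the 27 (81.5%), against 38.2% of all genes, and in 75.0% of the members' windows, against 35.7% of all windows. The E-box CACGTG was found in 6 of the 27 (22.2%), against 8.09% of all genes. The sterol core was found in Hmgcs1 alone among the 27, against 1.44% of all genes. A match of letters is a description of the window and not a measured binding site.

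Levels below are log2 scaled intensities, on which a difference of 1 is a factor of 2, and a level of one gene was never set against that of another. Changes were tested with limma, and a gene is called at a Benjamini-Hochberg adjusted p under 0.05 over all genes tested. In the sorted experiment the lowest level that could be given, the floor, was 5.27. Because each array measured the pooled RNA of about 10000 cells, fewer cells of a type and less RNA per cell cannot be told apart. Each array was also scaled to a common mean, so a change in total RNA would not be seen. Primary granule genes averaged 12.12 in L-GMP, against 8.96 in HSC and 12.65 in GMP, erythroid genes were highest in MEP (9.98, against 6.66 in GMP), and stem cell genes were highest in HSC (9.31). The CMP arrays went against their label in RNA: Cd34 lay between 9.22 and 9.81 in CMP, against 8.80 to 9.11 in GMP. Fcgr3, which encodes an Fc receptor, was at the floor on 2 of 4 CMP arrays, against 9.19 to 9.97 in GMP. Immediate early genes were low on all L-GMP arrays (6.93 to 8.43, as the mean of the list on an array) and on replicate 1 of HSC (8.76), CMP (7.01) and GMP (6.77), so calls were repeated without those 3 normal arrays. Of the fat cell markers, Adipoq and Cidec were at the floor on all 22 arrays and Fabp4 on 21 of 22, while the probe set of Lep read near 11.1 in L-GMP and between 11.05 and 11.30 in every normal group.

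In leukaemic L-GMP, 5 of 8 tested fatty acid genes (Elovl6, Fads1, Elovl5, Scd2 and Fasn), the cholesterol synthesis enzymes Hmgcs1 and Sqle and the SREBP escort Scap were lower than in normal GMP, while most enzymes between squalene and cholesterol did not pass the test. Elovl6, Sqle and Fads1 fell most, and Srebf1 was the member that rose. Of 26 members tested, 8 fell and 1 rose (9 called, 34.6%), against 33.5% called among all 8422 genes tested, so the members were called about as often as any gene. In direction the calls were uneven: 8 of 26 members fell, against 18.3% of all genes, and 1 rose, against 15.2%. The median change of the members was -0.06, against 0.01 over all genes. Groups did not overlap for 8 of the 26 members with L-GMP lower, against 14.1% of all genes, and for 1 with L-GMP higher, against 11.4%. These were the 9 called members, and since both measures use the same arrays, the lack of overlap is not separate support for the calls. Each of the 9 calls held under all 8 other processing settings and with any 1 of the 22 arrays left out. The setting with every kept probe set took each member at its probe set of smallest adjusted p, so it could hardly end a call.

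The fatty acid genes carried most of these calls, with 5 of 8 tested lower in L-GMP than in GMP and none higher, against 18.3% of all genes lower. Their median change was -0.63. Elovl6 encodes the elongase that turns palmitate into stearate. Its level in L-GMP was lowest at 5.69, median 5.91 and highest at 6.41, against 9.12, 8.91, 8.48, 8.95 and 8.93 in HSC, 8.47, 8.06 and 7.51 in MEP, 8.66, 8.90, 8.92 and 8.50 in CMP and 8.65, 8.66, 8.35 and 7.90 in GMP. Every L-GMP array lay below every normal array, by more than 1 log2 unit, and all L-GMP arrays were above the floor. The change from GMP was -2.43 ± 0.19 (SE, limma adjusted p = 2.27e-09), a 5.39-fold lower level, and a second probe set of Elovl6 gave -2.04. Elovl6 was also called lower against HSC (-2.92), MEP (-2.05) and CMP (-2.78).

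Fads1 and Fads2 encode the desaturases that act in turn on polyunsaturated fatty acids, and both genes lie on chromosome 19. Fads1 in L-GMP was lowest at the floor of 5.27, median 5.37 and highest at 5.59, against 8.09, 7.60, 7.28, 7.14 and 7.95 in HSC, 7.86, 7.68 and 7.52 in MEP, 7.52, 7.31, 7.33 and 7.39 in CMP and 6.59, 6.60, 7.01 and 6.59 in GMP. No L-GMP array reached any normal array, and since 2 of the 6 L-GMP arrays were at the floor, the changes are no larger than they would be without one. They were -1.29 ± 0.15 from GMP (SE, limma adjusted p = 1.32e-06), -1.98 from CMP, -2.28 from MEP and -2.20 from HSC. Fads2 did not go with it: its levels in L-GMP were lowest at 6.65, median 6.99 and highest at 7.31, against 7.05, 7.11, 6.69 and 6.61 in GMP, and the groups overlapped. Its change from GMP was 0.12 ± 0.13 (SE, limma adjusted p = 0.517). Fads2 passed the test against HSC (-0.31, adjusted p = 0.0373) and MEP (-0.35, adjusted p = 0.0450), but these calls ended in 3 and 4 of 8 alternatives and with 6 and 12 of 22 single arrays left out.

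Elovl5, which lengthens polyunsaturated fatty acids, was placed between the normal groups. Its L-GMP levels were lowest at 9.83, median 9.98 and highest at 10.09, against 10.30, 10.27, 10.20, 10.09 and 10.31 in HSC, 9.66, 9.51 and 9.47 in MEP, 10.31, 10.13, 10.45 and 10.15 in CMP and 10.82, 10.89, 10.81 and 10.89 in GMP. All L-GMP arrays lay below those of GMP and CMP and above those of MEP. Elovl5 fell by 0.89 in L-GMP relative to GMP (SE 0.08, limma adjusted p = 2.05e-08) and, by less, relative to CMP (-0.30) and HSC (-0.27), and it rose by 0.42 relative to MEP (adjusted p = 4.13e-04). Its second probe set changed by -1.02 from GMP.

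Scd2, a desaturase that makes oleate from stearate, had L-GMP levels that were lowest at 9.11, median 9.61 and highest at 9.82, against 10.69, 10.63, 10.61, 10.65 and 10.39 in HSC and 10.27, 10.20, 10.15 and 10.07 in GMP. Fasn, the synthase that builds palmitate, had L-GMP levels that were lowest at 9.16, median 9.46 and highest at 9.85, against 9.97, 10.15, 10.22 and 10.04 in GMP. For both genes every L-GMP array lay below every GMP array. The change from GMP was -0.64 ± 0.12 for Scd2 (SE, limma adjusted p = 3.39e-04) and -0.62 ± 0.11 for Fasn (SE, limma adjusted p = 1.77e-04). Scd2 was lower still against HSC (-1.06) and was also lower against CMP (-0.79) and MEP (-0.57), and its second kept probe set changed by -0.85 from GMP. Fasn was lower against HSC (-0.39), CMP (-0.54) and MEP (-0.32), and the last of these calls ended in 3 of 8 alternatives and with 5 of 22 single arrays left out. Acly, which makes cytosolic acetyl-CoA from citrate, and Elovl1, an elongase of very long chains, were not called against GMP (-0.11, adjusted p = 0.281, and 0.00). Acaca, the acetyl-CoA carboxylase, read at the floor on every L-GMP, HSC and GMP array and on most MEP and CMP arrays, and Scd1 lay between 5.66 and 6.23 in L-GMP, against 5.35 to 5.99 in GMP, so neither was tested.

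**Figure D1:**
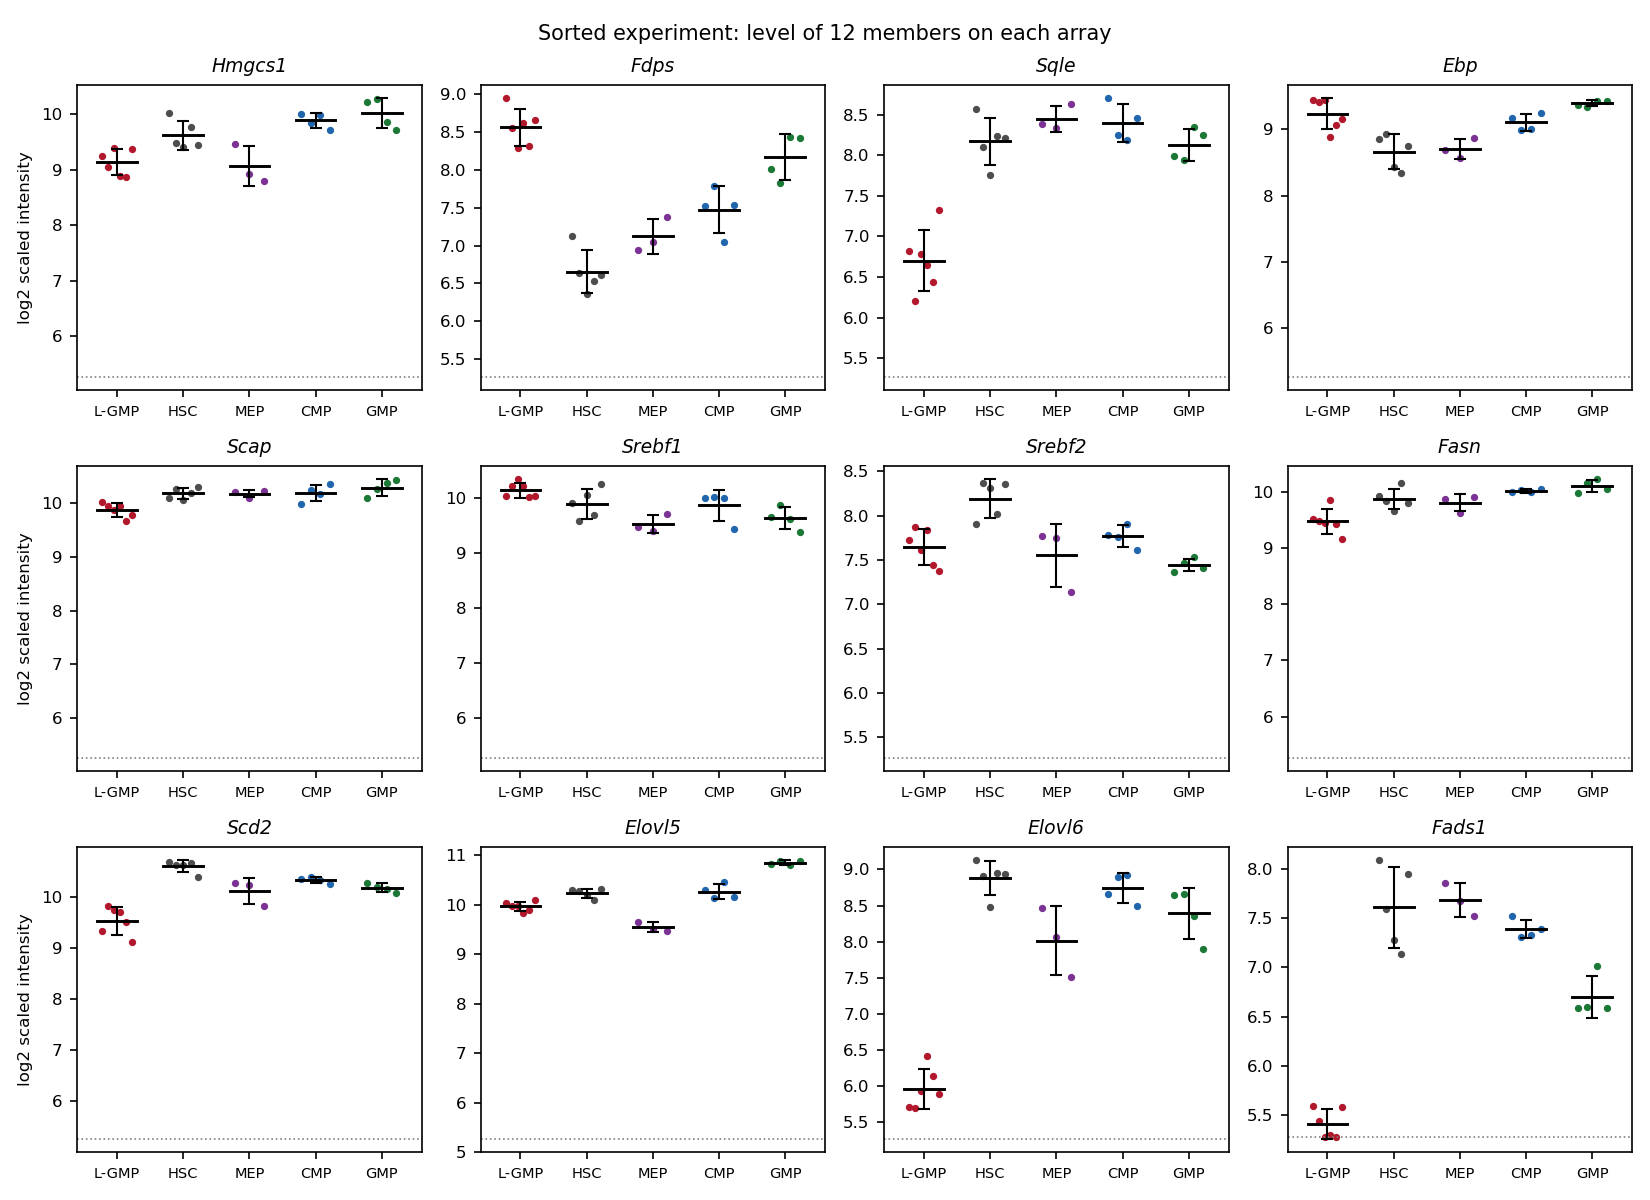
Level of 12 members on each of the 22 arrays of the sorted experiment, as log2 scaled intensity, with L-GMP left of HSC, MEP, CMP and GMP. Points are arrays, bars are the mean and SD of a group (n = 6, 5, 3, 4 and 4), and the dotted line is the floor of 5.27. Elovl6, Fads1 and Sqle lie lower on every L-GMP array than on any normal array, while Fdps is highest in L-GMP and GMP.

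The mevalonate pathway did not move as a block. Hmgcs1 encodes the synthase of HMG-CoA, the substrate from which mevalonate is made. Its L-GMP levels were lowest at 8.88, median 9.16 and highest at 9.39, against 10.02, 9.48, 9.42, 9.77 and 9.44 in HSC, 9.47, 8.93 and 8.80 in MEP, 10.01, 9.85, 9.99 and 9.72 in CMP and 10.22, 10.27, 9.86 and 9.72 in GMP. L-GMP lay below all arrays of GMP, CMP and HSC and overlapped with MEP. Hmgcs1 fell by 0.88 in L-GMP relative to GMP (SE 0.16, limma adjusted p = 1.74e-04), by 0.75 relative to CMP and by 0.49 relative to HSC, and its change from MEP was not called. Its 2 other kept probe sets changed by -0.96 and -0.87 from GMP.

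Fdps, which makes farnesyl pyrophosphate for sterols and for protein prenylation, went the other way. In L-GMP it was lowest at 8.28, median 8.59 and highest at 8.94, against 7.13, 6.64, 6.36, 6.53 and 6.61 in HSC, 6.94, 7.05 and 7.38 in MEP, 7.52, 7.79, 7.05 and 7.53 in CMP and 8.01, 7.82, 8.43 and 8.41 in GMP. L-GMP lay above every HSC, MEP and CMP array and overlapped with GMP. Fdps rose by 1.90 ± 0.16 relative to HSC (SE, limma adjusted p = 2.18e-09), by 1.44 relative to MEP and by 1.09 relative to CMP, and its change of 0.39 from GMP was not called (adjusted p = 0.0861). Among the normal groups it was highest in GMP, with changes of -1.51 (HSC, adjusted p = 6.85e-07), -1.05 (MEP) and -0.70 (CMP) relative to GMP, and HSC was also lower than CMP (-0.82). The call of CMP against GMP for Fdps ended without replicate 3 of CMP (-0.56, adjusted p = 0.0597). Idi1, the isomerase of isopentenyl pyrophosphate, and Mvd, the decarboxylase before it, changed by -0.36 (adjusted p = 0.0824) and 0.30 (adjusted p = 0.261) in L-GMP against GMP and were not called. Idi1 was called without replicate 4 of GMP (-0.46, adjusted p = 0.0383). Mvk and Pmvk, the kinases of mevalonate and phosphomevalonate, were too dim to test, with L-GMP levels of 5.58 to 6.71 and 6.10 to 6.62, against GMP levels of 6.06 to 6.53 and 6.18 to 6.44.

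Of the enzymes from squalene to cholesterol, 1 of 10 tested was lower in L-GMP than in GMP and none was higher, against 18.3% and 15.2% of all genes. With 10 genes these counts cannot be told from those shares. The median change of the 10 was 0.10. The exception was Sqle, the squalene epoxidase that commits squalene to the sterol branch. Its L-GMP levels were lowest at 6.20, median 6.72 and highest at 7.32, against 8.57, 8.10, 7.76, 8.23 and 8.21 in HSC, 8.38, 8.34 and 8.63 in MEP, 8.70, 8.25, 8.19 and 8.46 in CMP and 7.99, 7.94, 8.34 and 8.25 in GMP. All 6 L-GMP arrays lay below all 16 normal arrays. Sqle fell by 1.43 relative to GMP (SE 0.18, limma adjusted p = 2.26e-06, a 2.69-fold lower level), by 1.70 relative to CMP, by 1.75 relative to MEP and by 1.47 relative to HSC. The 4 normal groups lay within 0.32 of each other in their means, and none of the 6 comparisons among them called Sqle.

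Fdft1, which makes squalene, was lowest at 7.23, median 7.51 and highest at 7.87 in L-GMP, against 6.95, 7.05, 7.20 and 7.31 in GMP, and its change of 0.39 was not called (adjusted p = 0.0719). It was called higher in 2 of 8 alternatives, the replicate block (0.44, adjusted p = 0.0413) and the 2 groups alone (adjusted p = 0.0336), and with any of 4 single arrays left out. Lss, which closes the ring of lanosterol, ranged from 6.35 to 9.56 in L-GMP, against 6.69 to 9.35 in GMP, a spread within groups that was wider than any difference between them. Cyp51, the lanosterol demethylase, changed by -0.29 (adjusted p = 0.394). Dhcr7, the reductase of a last step, was too dim to test, at 6.47 to 6.99 in L-GMP, against 6.33 to 6.80 in GMP. The other members of the branch, Tm7sf2, Nsdhl, Msmo1, Hsd17b7 and Ebp, lay between -0.16 (Ebp, adjusted p = 0.372) and 0.28 (Tm7sf2, adjusted p = 0.459) and were not called. Calls in this branch came instead from L-GMP against the other normal groups. Tm7sf2, a sterol reductase, was lowest at 6.95, median 7.35 and highest at 8.32 in L-GMP, against 6.59, 6.30, 6.87, 6.90 and 6.27 in HSC and 6.41, 7.23, 5.96 and 6.08 in CMP. It was above every HSC array and overlapped with CMP, and it rose by 0.88 relative to HSC (adjusted p = 0.00606) and by 1.05 relative to CMP (adjusted p = 0.00338). Ebp, the sterol isomerase on the X chromosome, rose by 0.57 relative to HSC (adjusted p = 3.79e-04) and by 0.53 relative to MEP (adjusted p = 0.00333). Sc5d, a sterol desaturase, was called higher than CMP (0.74, adjusted p = 0.0252) and MEP (0.70, adjusted p = 0.0468), but these calls ended in 3 and 4 of 8 alternatives and with 4 and 14 of 22 single arrays left out. Over all these settings its change from CMP ran from 0.58 to 1.13 (limma adjusted p from 1.42e-05 to 0.0944). Its change from MEP ran from 0.47 to 0.95 (limma adjusted p from 2.36e-04 to 0.221). A second probe set of Sc5d changed by 0.50 from GMP and was called when all kept probe sets were tested (adjusted p = 0.0287), while the one used here was not (0.31, adjusted p = 0.390).

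The 2 regulators called in L-GMP against GMP moved in opposite directions. Srebf1 was lowest at 10.01, median 10.13 and highest at 10.34 in L-GMP, against 9.91, 9.59, 10.05, 9.69 and 10.26 in HSC, 9.47, 9.40 and 9.71 in MEP, 9.43 on replicate 4 and 10 to 10.03 on the other arrays in CMP and 9.67, 9.88, 9.62 and 9.38 in GMP. All L-GMP arrays were above those of GMP and MEP and overlapped with HSC and CMP. Srebf1 rose by 0.51 ± 0.14 relative to GMP (SE, limma adjusted p = 0.00743) and by 0.62 relative to MEP (adjusted p = 0.00210). The probe set counts all transcripts of Srebf1 that it matches, and no isoform was told apart. Scap, the escort of both factors, was lowest at 9.66, median 9.90 and highest at 10.01 in L-GMP, against 10.08, 10.26, 10.36 and 10.43 in GMP, with no overlap. It fell by 0.42 relative to GMP (SE 0.09, limma adjusted p = 0.00119), by 0.32 relative to CMP, by 0.31 relative to HSC and by 0.30 relative to MEP, and the call against MEP ended with the 3'/5' ratio of the arrays as a covariate and without replicate 1 or replicate 3 of MEP.

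Srebf2, the factor of cholesterol synthesis, set HSC apart. It was lowest at 7.38, median 7.67 and highest at 7.88 in L-GMP, against 7.90, 8.37, 8.31, 8.01 and 8.36 in HSC, 7.77, 7.75 and 7.14 in MEP, 7.79, 7.76, 7.91 and 7.61 in CMP and 7.37, 7.46, 7.53 and 7.41 in GMP. HSC lay above every L-GMP, MEP and GMP array and overlapped with CMP by 1 HSC array. Srebf2 fell by 0.54 in L-GMP relative to HSC (adjusted p = 9.69e-04) and was higher in HSC than in GMP by 0.75 (adjusted p = 1.61e-04) and than in MEP by 0.64 (adjusted p = 0.00213). Its change from GMP in L-GMP, 0.21, was not called (adjusted p = 0.253), and a second probe set gave -0.12. Insig2, which retains SCAP, was lowest at 7.12, median 7.48 and highest at 7.77 in L-GMP, against 7.59, 7.67, 7.75 and 7.58 in GMP. The groups overlapped, and the change was -0.19 (adjusted p = 0.445).

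Against the other normal groups the count of members called was again near the background. In L-GMP against HSC, 10 of 26 fell and 4 rose (53.8% called), against 47.2% of all genes (23.8% lower and 23.4% higher). The comparison with CMP called 11 members, 8 lower and 3 higher (42.3%), against 39.9% of all genes (21.5% lower and 18.4% higher). The comparison with MEP called 12 members, 7 lower and 5 higher (46.2%), against 45.2% of all genes (22.9% lower and 22.3% higher). All 4 L-GMP comparisons share the L-GMP arrays, so their agreement is not independent. Elovl1 was called higher than HSC (0.28), and that call ended with the 3'/5' ratio of the arrays as a covariate. This ratio compares the 3' with the 5' control probe sets of Actb and Gapdh as a measure of RNA length, and on the log2 scale it was 2.85 ± 0.08 in L-GMP (SD, n = 6), against 3.09 ± 0.15 in HSC (SD, n = 5) and 2.92 ± 0.31 in GMP (SD, n = 4). The 5 macrophage markers were also higher in L-GMP (9.36 to 9.74 as the mean of the list on an array) than in GMP (8.68 to 8.76), and their part in the results was not tested.

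**Figure D2:**
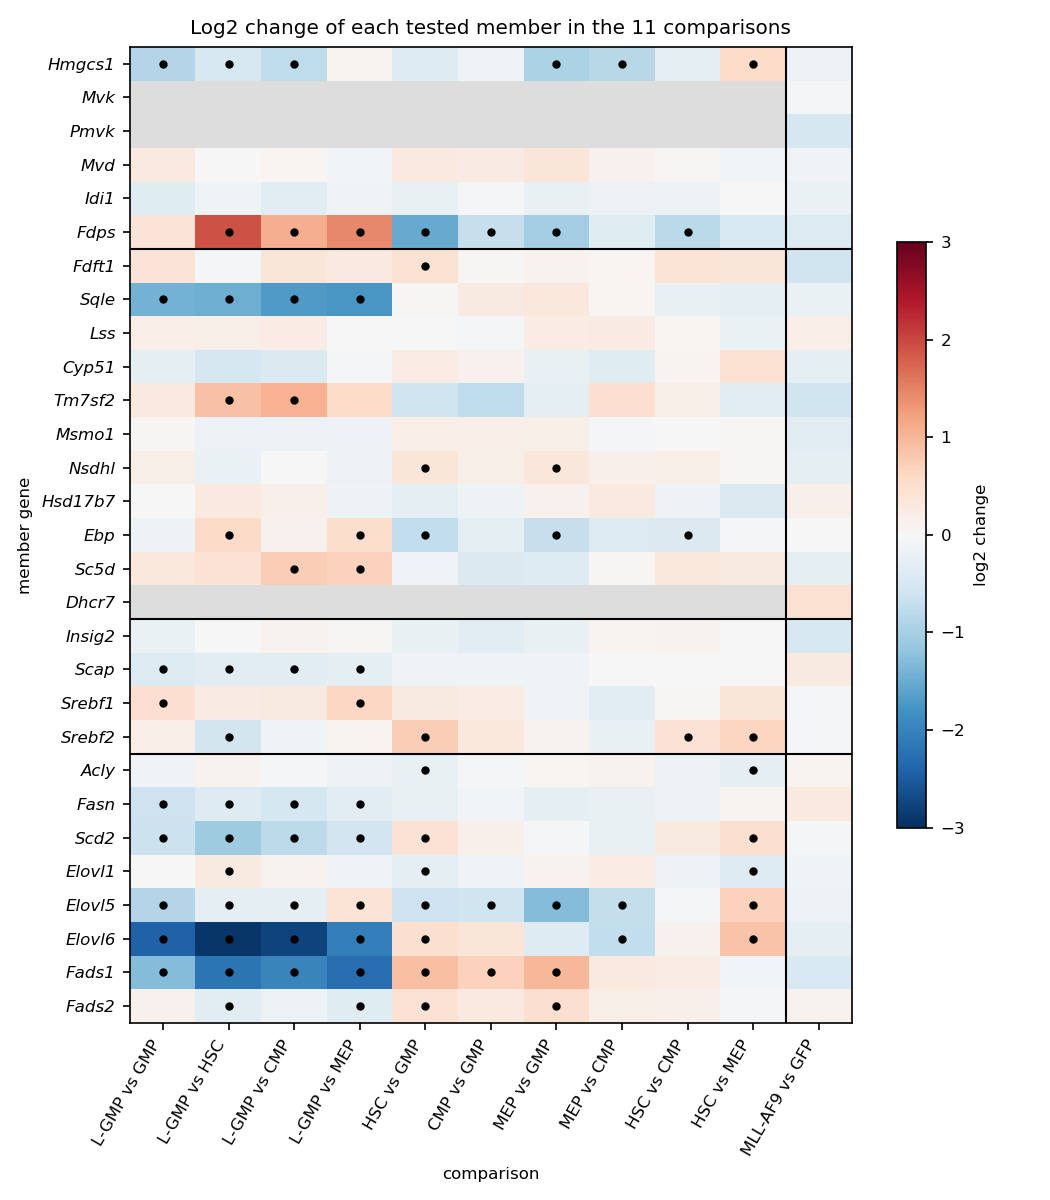
Log2 change of each tested member (rows, grouped as mevalonate pathway, squalene to cholesterol, regulators and fatty acid genes) in the 11 comparisons (columns, first-named group minus second), with black dots on called changes and grey where a member was not tested. The deepest blue cells are those of Elovl6 in all 4 L-GMP columns and of Fads1 in L-GMP against HSC, CMP and MEP, and the MLL-AF9 column has no dot.

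Among the normal groups the largest differences lay in Fdps, Elovl5 and Fads1. HSC against GMP called 12 of 26 members, 7 higher and 5 lower (46.2%), against 41.2% of all genes (19.4% higher and 21.8% lower). Fads1 (0.91, adjusted p = 9.27e-05), Srebf2 (0.75), Fads2 (0.43), Scd2 (0.42) and Nsdhl (0.36), an X-linked enzyme of sterol demethylation, were higher in HSC. Fdps (-1.51), Ebp (-0.73, adjusted p = 1.31e-04), Elovl5 (-0.62, adjusted p = 3.61e-06), Elovl1 (-0.28) and Acly (-0.22) were lower in HSC. Elovl6 (0.49, adjusted p = 0.0482) and Fdft1 (0.45, adjusted p = 0.0400) were also called, but each call ended in 4 of 8 alternatives and with 13 and 7 of 22 single arrays left out. Over all these settings the change of Elovl6 ran from 0.33 to 0.98 (limma adjusted p from 3.92e-05 to 0.207). That of Fdft1 ran from 0.27 to 0.57 (limma adjusted p from 0.00728 to 0.252). The calls of Acly and Elovl1 ended with 6 and 3 single arrays left out, that of Elovl1 also with the 3'/5' ratio as a covariate, and that of Fads2 without replicate 4 of GMP (adjusted p = 0.0593).

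MEP against GMP called 7 members, 3 higher and 4 lower (26.9%), against 27.5% of all genes (11.9% higher and 15.6% lower). Elovl5 was lower in MEP by a change of -1.30 ± 0.09 (SE, limma adjusted p = 5.76e-10), followed by Fdps (-1.05), Hmgcs1 (-0.95, adjusted p = 4.53e-04) and Ebp (-0.69, adjusted p = 0.00127). Fads1 (0.99, adjusted p = 2.19e-04), Fads2 (0.47) and Nsdhl (0.33) were higher, and the last 2 of these calls ended under some settings. Nsdhl lost its call without replicate 2 of MEP (0.22, adjusted p = 0.166) and in a fit of the 2 groups alone (adjusted p = 0.0952). Fads2 lost its call with any of 3 arrays left out, with the replicate number as a block (0.42, adjusted p = 0.0514) and in the 2 groups alone (adjusted p = 0.0602). MEP against CMP called 3 members, all lower (11.5%), against 17.1% of all genes called and 10.9% called lower: Hmgcs1 (-0.82), Elovl5 (-0.71) and Elovl6 (-0.73), the last of which ended with any of 4 arrays left out and in the 2 groups alone. CMP against GMP called 3 members (11.5%), against 16.8% of all genes, with Fads1 higher (0.69) and Fdps (-0.70, not called without replicate 3 of CMP) and Elovl5 (-0.59) lower in CMP. The count was 6 in a fit of those 2 groups alone (23.1%, against 17.7% of all genes), so the share of members depended on the setting. It was also 6 when every kept probe set was tested, but a member then counted if any of its probe sets was called. That count cannot be set against the 16.2% of single probe sets called.

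HSC against CMP called 3 members (11.5%), against 13.4% of all genes, and HSC against MEP called 7 (26.9%), against 32.9%. In HSC against CMP the call that held in all alternatives was Fdps, lower in HSC (-0.82, adjusted p = 0.00361). Ebp (-0.44) and Srebf2 (0.42) lost theirs in 3 and 4 of 8 alternatives and with 4 and 11 single arrays left out. In HSC against MEP, Elovl6 (0.87, adjusted p = 0.00288), Elovl5 (0.69, adjusted p = 3.35e-06), Srebf2 (0.64), Hmgcs1 (0.56) and Scd2 (0.48) were higher in HSC, and Elovl1 (-0.39) and Acly (-0.27) were lower. Without replicate 3 of MEP this count fell to 4, and Scd2 was then at 0.34 (adjusted p = 0.107). The calls of Hmgcs1 and Acly ended with any of 3 and 2 single arrays left out, and that of Hmgcs1 also in 2 of 8 alternatives. For Elovl5 the normal groups thus ran, from low to high, MEP, HSC, CMP and GMP, and only the step between HSC and CMP was not called.

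Other genes of the same metabolism were read from a list of 66, of which 40 were tested. In L-GMP against GMP, 15 of the 40 fell and 2 rose, against 18.3% and 15.2% of all genes. Apoe, an apolipoprotein of cholesterol transport, lay at the floor on each of the 6 L-GMP arrays, against 7.46 to 8.11 in GMP, at least 5.95-fold lower in L-GMP (adjusted p = 6.14e-11). Fabp5, a fatty acid binding protein, lay between 8.63 and 9.56 in L-GMP, against 11.06 to 11.42 in GMP, and fell by 2.18 (adjusted p = 2.53e-10). Of 12 genes of cholesterol uptake and export, 3 fell and 2 rose. Those that fell with Apoe were Abca1, a cholesterol exporter (-0.78, adjusted p = 0.0192, with 2 L-GMP arrays at the floor), and Scarb1, a lipoprotein receptor (-0.73). Lipa, the lysosomal lipase (0.49), and Mylip, a ligase that marks the LDL receptor for degradation (0.60), rose.

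Of 12 tested genes of fatty acid oxidation, 6 fell in L-GMP relative to GMP, 6 did not pass the test and none rose, against 18.3% of all genes lower and 15.2% higher. Their median change was -0.32, against 0.01 over all genes, and 11 lay below 0. Examples were Hadh (-0.62, adjusted p = 7.19e-07), Etfdh (-0.59) and Decr1 (-0.53), which act in mitochondrial beta-oxidation. The elongation cycle to which the ELOVL enzymes belong also includes Hacd3, a dehydratase (-0.80, adjusted p = 1.51e-05), and Hsd17b12, a reductase (-0.64, adjusted p = 0.00134), and both fell in L-GMP. They were picked from a list of 9 tested other enzymes of the 2 pathways, which did not fall as a whole. The mean of that list on an array was 8.86 to 9.13 in L-GMP, against 8.99 to 9.27 in GMP, and the groups overlapped.

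**Figure D3:**
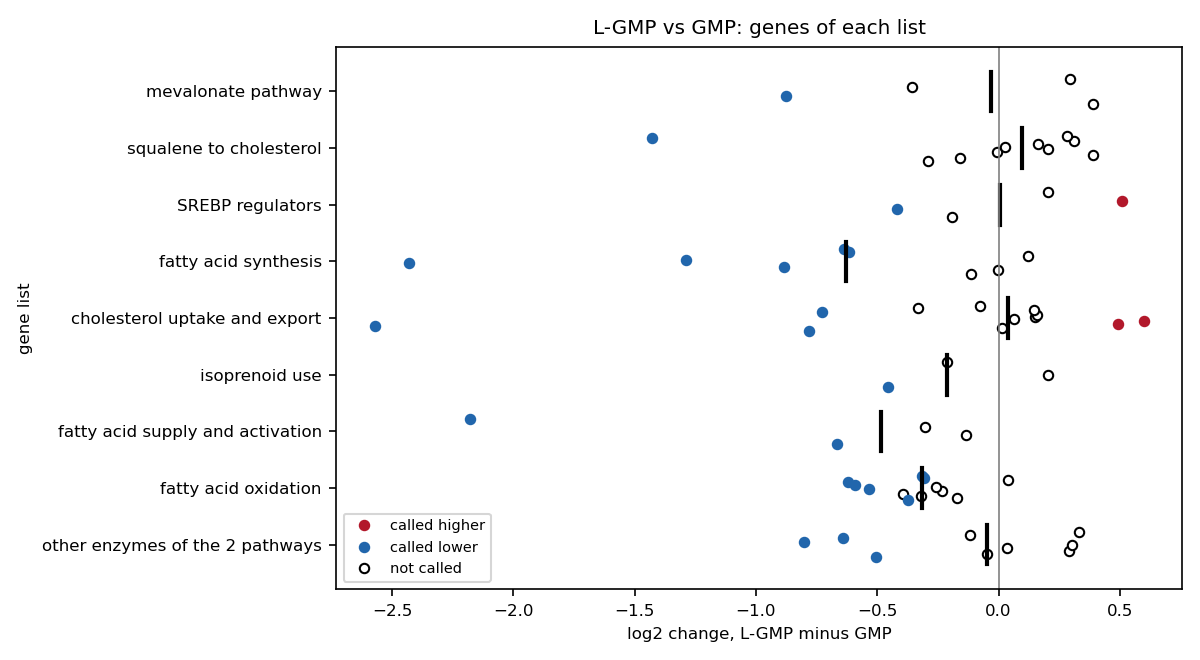
Log2 change of L-GMP minus GMP for each tested gene of the 4 member groups and of 5 further lists of the same metabolism; filled points are called, open points are not, and the black bar is the median of a list. The fatty acid synthesis genes have a median of -0.63, with 5 of 8 called lower, while squalene to cholesterol has a median of 0.10, with Sqle as its outlying point.

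In the transduced experiment, GMP that expressed MLL-AF9 were compared with GMP that expressed GFP. No member passed the test: 0 of 29 were called, against 0.0276% of all 7235 genes, which is 2 genes. At an unadjusted p under 0.05, 5 of the 29 passed, all lower in MLL-AF9, against 10.2% of all genes. The changes leaned one way, with 21 members below 0 and 8 above, and a median of -0.17, against 0.02 over all genes. The members share the same arrays, so their signs are not independent, and some turned with 1 array left out. All 6 tested genes of the mevalonate pathway and 7 of 11 from squalene to cholesterol lay below 0, though Mvd and Mvk lay above 0 without replicate 1 of GFP. The groups did not overlap for 7 of 29 members, all lower in MLL-AF9, against 9.01% of all genes, and for 0 members with MLL-AF9 higher, against 8.47%. Some lists of marker genes differed by more between the same arrays, and others did not. Primary granule genes averaged 13.40 in MLL-AF9, against 13.42 in GFP, and genes of the G2 and M phases 11.78, against 11.81. The 5 macrophage markers were all below 0 in change, at 9.67 to 10.53 in MLL-AF9 as the mean of the list on an array, against 10.99 to 11.92 in GFP. The 6 tested neutrophil markers were also all below 0 (9.82 to 11.54 in MLL-AF9, against 10.89 to 12.72 in GFP), as were the 8 tested immediate early genes (7.98 to 8.84 in MLL-AF9, against 9.03 to 9.91 in GFP). The 3 tested stem cell genes were above 0 (8.74 to 9.22 in MLL-AF9, against 7.52 to 8.08 in GFP), led by Meis1, with 2.82. No gene of the macrophage, neutrophil, immediate early and stem cell lists was called, and their part in the members' changes was not tested.

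The largest differences were in sterol enzymes. Tm7sf2 had levels of 8.27, 8.23 and 8.17 in MLL-AF9, against 9.12, 8.74 and 8.61 in GFP, with no overlap and a change of -0.60 ± 0.15 (SE, limma adjusted p = 0.382). Pmvk had 7.76, 7.60 and 7.72 in MLL-AF9, against 8.39, 8.02 and 8.16 in GFP, again with no overlap (-0.50 ± 0.13, SE, adjusted p = 0.382). Fdft1 had 9.74, 9.11 and 8.92 in MLL-AF9, against 10.33, 9.61 and 9.64 in GFP, and here 1 MLL-AF9 array lay above 2 GFP arrays although each was below the GFP array of its own number. The change of Fdft1 was -0.60 ± 0.28 (SE, adjusted p = 0.504).

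Smaller differences without overlap were seen in both pathways. Cyp51 had 9.35, 9.26 and 9.29 in MLL-AF9, against 9.62, 9.63 and 9.57 in GFP (-0.30, adjusted p = 0.447). Sqle had 10.63, 10.65 and 10.81 in MLL-AF9, against 10.89, 10.92 and 10.90 in GFP (-0.21, adjusted p = 0.546). Sc5d had 8.92, 9.05 and 8.91 in MLL-AF9, against 9.42, 9.21 and 9.11 in GFP (-0.29, adjusted p = 0.498). In each of these the highest MLL-AF9 array was below the lowest GFP array. Insig2 had 8.68, 9.11 and 9.42 in MLL-AF9, against 9.53, 9.58 and 9.57 in GFP (-0.49, adjusted p = 0.483), and it was the MLL-AF9 arrays that spread. Elovl6 had 9.38, 9.49 and 9.22 in MLL-AF9, against 9.62, 9.69 and 9.63 in GFP (-0.29, adjusted p = 0.483).

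Among the regulators and fatty acid genes the largest positive values were those of Fasn and Scap. Fasn had 12.10, 11.98 and 11.78 in MLL-AF9, against 11.49, 11.70 and 11.80 in GFP (0.29, adjusted p = 0.515), and Scap had 11.15, 11.22 and 10.76 in MLL-AF9, against 10.41, 10.98 and 10.91 in GFP (0.27, adjusted p = 0.668). Both overlapped between groups. Fads1 had 9.79, 9.32 and 9.10 in MLL-AF9, against 10.05, 9.73 and 9.80 in GFP (-0.45, adjusted p = 0.501). Srebf1 had 11.59, 11.29 and 10.95 in MLL-AF9, against 11.62, 11.17 and 11.19 in GFP, and Srebf2 had 9.41, 9.24 and 9.07 in MLL-AF9, against 9.58, 8.99 and 9.23 in GFP. Neither regulator differed by more than its spread (-0.05 and -0.03), and both signs turned without replicate 1 of GFP (0.10 and 0.13) and without replicate 3 of MLL-AF9 (0.11 and 0.06). Dhcr7 had the largest positive change of the 29 tested members, 0.45, with 9.26, 8.92 and 8.34 in MLL-AF9, against 8.17, 8.48 and 8.53 in GFP (adjusted p = 0.564). The members not named in this comparison lay between -0.41 (Fdps) and 0.19 (Lss).

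Arrays with the same replicate number deviated together in this experiment, so the fit was repeated with the replicate number as a block. That fit called 126 of all 7235 genes (1.74%) and again 0 of 29 members. At so low a share, 0 of 29 says little about the members. The members with the smallest p were then Fdft1 (-0.60 ± 0.11, SE, adjusted p = 0.0581), Tm7sf2 (adjusted p = 0.0829) and Pmvk (adjusted p = 0.0900), each lower in MLL-AF9 in 3 of 3 pairs. Of the 38 other genes of the metabolism that were tested, 0 were called in the fit without the block, against 0.0276% of all genes. The 9 of cholesterol uptake and export all lay below 0, from -0.07 (Abcg1) to -1.64 (Apoe, adjusted p = 0.461). Whether the changes of MLL-AF9 against GFP differ from those of L-GMP against GMP was not tested, since the experiments are noncomparable.

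**Figure D4:**
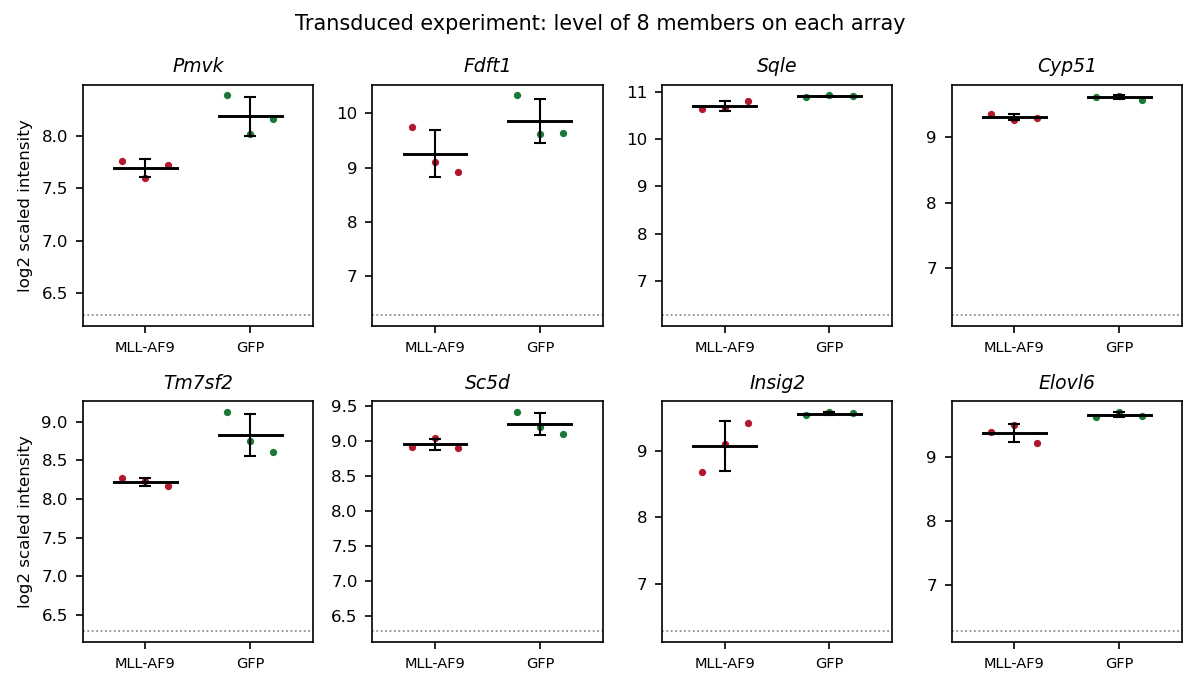
Level of 8 members on each array of the transduced experiment, as log2 scaled intensity, with MLL-AF9 left of GFP. Points are arrays, bars are the mean and SD (n = 3 each), and the dotted line is the floor of 6.29; all members shown except Fdft1 have their 3 MLL-AF9 arrays below their 3 GFP arrays, and none passed the adjusted test.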

How the data were processed

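RNA of about 10000 sorted bone marrow cells per sample was amplified, biotin-labelled and hybridised to Affymetrix arrays of 22690 probe sets, per the labels' protocols. The authors deposited linear intensities, 1 per probe set, and the submitters' processing notes name MAS5; its version and scaling target are not given in the sources used here. Each array held 187 to 413 values at or below 0, whose origin is not stated.

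The 64 control probe sets were removed, and within each experiment arrays were scaled to a common mean after trimming 2% at each end (factors 0.923 to 1.12). Values under the experiment's 25th percentile were set to that floor (transduced 78.0, sorted 38.7) and taken to log2. Probe sets above the experiment's median on at least 3 arrays were kept, and a gene was represented by its kept single-gene probe set of highest mean. Groups came from the sample titles. Groups were compared with the two-sided moderated test of limma 3.58.1 (eBayes after lmFit, R 4.3.3), with 6 transduced arrays in one fit and 22 sorted arrays in another, and p-values adjusted over all genes tested. Simulated data with known changes were used to check the fit. The number of arrays, 3 to 6 a group, limits precision.

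Same-numbered arrays deviated together in 3 of 3 transduced pairs (r between 0.379 and 0.596), and in 18 of 37 sorted pairs (-0.493 to 0.528). The members and all lists were chosen with earlier results of these data known. Named genes are the called members (the 8 of largest change in full, the rest more briefly), with values on every array for up to 4 members of a branch and for the regulators. Elovl1, Acly, Lss, Dhcr7, Mvk, Pmvk, Acaca and Scd1 are given to account for every member. Alternatives were quantile normalization, a 10th percentile floor, no filter, all kept probe sets, the 3'/5' ratio or replicate number as covariate, each array left out, 3 arrays left out together, and the 2 groups alone. With all kept probe sets, a member was taken at its probe set of smallest adjusted p. Promoter sequences are from RefSeq.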

Additional observations from a re-analysis of the deposited data

Results flagged for a closer look

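In 6 of 104 groups of 4 to 6 arrays, the level of a member on 1 array stood apart from the rest of its group by Dixon's criterion, which chance exceeds in about 1 group in 20. Tm7sf2 was 7.96 on replicate 1 of GMP, against 6.86 to 7.03 on the other GMP arrays. Nsdhl was 8.24 on the same GMP array, against 8.05 to 8.06. Fads1 was 7.01 on replicate 3 of GMP, against 6.59 to 6.60. Msmo1, a sterol methyl oxidase, was 7.38 on replicate 1 of HSC, against 6.29 to 6.54. Scd2 was 10.39 on replicate 5 of HSC, against 10.61 to 10.69. Srebf1 was 9.43 on replicate 4 of CMP, against 10 to 10.03.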

How the results depend on the processing

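Members were followed one by one where the text describes uncalled ones, that is all tested members of L-GMP against GMP and MLL-AF9 against GFP, and otherwise where they were called, 127 results in all. Of their 3288 repeats, 3097 kept direction and side of the threshold, 144 lost a call, 8 gained one (Fdft1, Idi1 and Sc5d in L-GMP against GMP) and 39 changed sign. Members that were not called in the other 9 comparisons entered only the counts below. The sign changes were all of uncalled changes. In MLL-AF9 against GFP, Srebf2 was 0.10 with every kept probe set, and Ebp was -0.011 with quantile normalization and -0.023 with the 3'/5' ratio as covariate. In L-GMP against GMP, Elovl1 was 0.061 with every kept probe set, 0.063 with the replicate block and 0.016 without replicate 1 of HSC, CMP and GMP together, where Hsd17b7 was 0.0059. Without single arrays, ranges that crossed 0 in MLL-AF9 against GFP were -0.028 to 0.20 for Acly, -0.17 to 0.14 for Ebp, -0.079 to 0.21 for Fads2, -0.041 to 0.34 for Hsd17b7, -0.21 to 0.016 for Mvd, -0.14 to 0.085 for Mvk, -0.20 to 0.16 for Scd2, -0.20 to 0.11 for Srebf1 and -0.17 to 0.13 for Srebf2. In L-GMP against GMP they were -0.057 to 0.038 for Elovl1, -0.10 to 0.13 for Hsd17b7, -0.13 to 0.76 for Lss and -0.068 to 0.10 for Msmo1. The members called in CMP against GMP were 6 with every kept probe set and 6 in a fit of those groups alone, against 3. The members called in HSC against CMP were 1 with the replicate number as a block and 1 without replicate 1 of HSC, CMP and GMP together, against 3; the block changed no other count by over 1.5 times, giving 0 in MLL-AF9 against GFP and 10 in L-GMP against GMP. With 1 array left out, counts were 0 for MLL-AF9 against GFP, 9 to 10 for L-GMP against GMP, 13 to 15 against HSC, 10 to 11 against CMP and 8 to 12 against MEP (8 without replicate 3 of MEP). They were 8 to 13 for HSC against GMP (8 without replicate 2 of HSC), 2 to 4 for CMP against GMP, 5 to 7 for MEP against GMP, 2 to 4 for MEP against CMP, 1 to 3 for HSC against CMP (1 without replicate 1 or replicate 4 of CMP) and 4 to 8 for HSC against MEP. The causes were not tested.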

Other observations

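Lss, Tm7sf2 and, less often, Sc5d were high on the same arrays, a pattern noticed in the values. In 5 of 5 sorted groups the array with the highest Lss level was also the one with the highest Tm7sf2 level. Replicate 5 of L-GMP had 9.56 for Lss, 8.32 for Tm7sf2 and 8.74 for Sc5d, each the highest of its group. Replicate 1 of GMP had 9.35 for Lss, 7.96 for Tm7sf2 and 8.33 for Sc5d, again each the highest. For Sc5d this held in 3 of 5 groups. Without replicate 5 of L-GMP, Tm7sf2 remained higher in L-GMP than in HSC (0.71) and CMP (0.88).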
